A study of Caenorhabditis elegans with 34 samples.

Results

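The genes described here are the eif genes of Caenorhabditis elegans, which encode translation initiation factors. They were taken as every arrayed probe whose gene symbol, updated by gene ID in the reference gene table, starts with eif-. That rule found 6 genes with 1 probe each among 13323 probes, of which 957 carried a gene-class symbol; 5543 different genes were named in all. The reference table lists 25 eif genes in all, and those without a matched probe were not analysed here. The measured genes are eif-2Balpha (ZK1098.4, probe 4167, chromosome III), eif-2Bbeta (Y47H9C.7, probe 9909, chromosome I), eif-2Bdelta (F11A3.2, probe 226, chromosome V), eif-2Bepsilon (D2085.3, probe 3142, chromosome II), eif-2A (E04D5.1, probe 3177, chromosome II) and eif-2D (C25H3.4, probe 2768, chromosome II). Chromosomes are those of the reference gene table, whose assembly is WBcel235.

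Translation starts when an initiator methionyl-tRNA is placed on the small ribosomal subunit, a step carried out by the GTP-binding factor eIF2. eIF2B is the exchange factor that reloads eIF2 with GTP. In yeast and mammals its alpha, beta and delta subunits form the regulatory part that senses phosphorylated eIF2, and its epsilon subunit carries the catalytic activity together with gamma. eIF2A and eIF2D are separate single-chain factors, known mainly from mammals and yeast, that are not subunits of eIF2 or eIF2B. eIF2A has been linked to delivery of initiator tRNA without eIF2, and eIF2D to tRNA delivery and to the recycling of ribosomal subunits. A growing germ line is a large site of protein synthesis, because oocytes are filled with ribosomes and maternal RNA.

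RNA was measured on 34 spotted arrays with 2 channels each. A first set of 29 arrays paired worm RNA, from wild type (N2) or the mutant glp-4(bn2), with a pool of wild-type reference RNA, at the larval stages L2, L3 and L4 and in young adults; both strains were synchronized, and the labels number each sample by worm batch. Wild type had 3, 4, 4 and 3 arrays in that order of stage, and glp-4(bn2) had 3, 4, 4 and 4. The labels use glp-4(bn2) as the strain with no germ line. The sources used here do not give the temperature at which these worms grew. glp-4 is known to encode a valyl-tRNA synthetase, so the mutation itself lies in a gene of the translation machinery. On the other 5 arrays fem-3(q23), a gain-of-function allele whose worms keep making sperm, was hybridised directly against fem-1(hc17), a loss-of-function allele whose worms make oocytes and no sperm. Both alleles are temperature-sensitive, the soma is female in both strains, and the labels give growth at the permissive temperature, without saying when worms were shifted.

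All values below are log2 ratios. For the 29 reference arrays they read worm RNA over reference RNA, so a value of 0 means the level of the pool, and a strain difference is wild type minus glp-4(bn2). A fold quoted beside a log2 value holds only if the deposited logarithm has base 2, as was assumed. Differences were tested with limma over all probes, errors beside a difference are standard errors, and a gene is called where the Benjamini-Hochberg adjusted p is below 0.05. A level relative to the pool can be compared between groups for 1 gene, but says nothing on which of the genes has more RNA. Because whole worms were used, fewer germ cells and less RNA per cell cannot be told apart.

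The reference arrays held 10155 to 11696 values each and the fem arrays 12215 to 13295. All 6 eif genes were tested in all 14 comparisons; eif-2Bdelta had a value on 27 and eif-2Bbeta on 28 of the 29 reference arrays, and the others on every array. Of the germ line markers listed for a check of the labels, 3 genes had a probe, and the array medians over them were 0.71 to 1.04 in wild-type adults and -2.33 to -1.63 in glp-4 adults. Of the sperm markers 10 genes had a probe, and their medians were 1.75 to 3.07 on the arrays of fem-3 over fem-1. Labels disagree within themselves for a few arrays: details of wild-type L4 replicate 1 name L3, wild-type L4 replicate 4 reads L34, the source name of glp-4 L2 replicate 1 says L3, and glp-4 adult replicate 1 has another time code than the other adults. Titles call the reference pool either a mixed control, on all adult arrays, or REF-vjr, on all L2 arrays. L3 and L4 groups hold both wordings, on 2 arrays each.

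**Figure D1:**
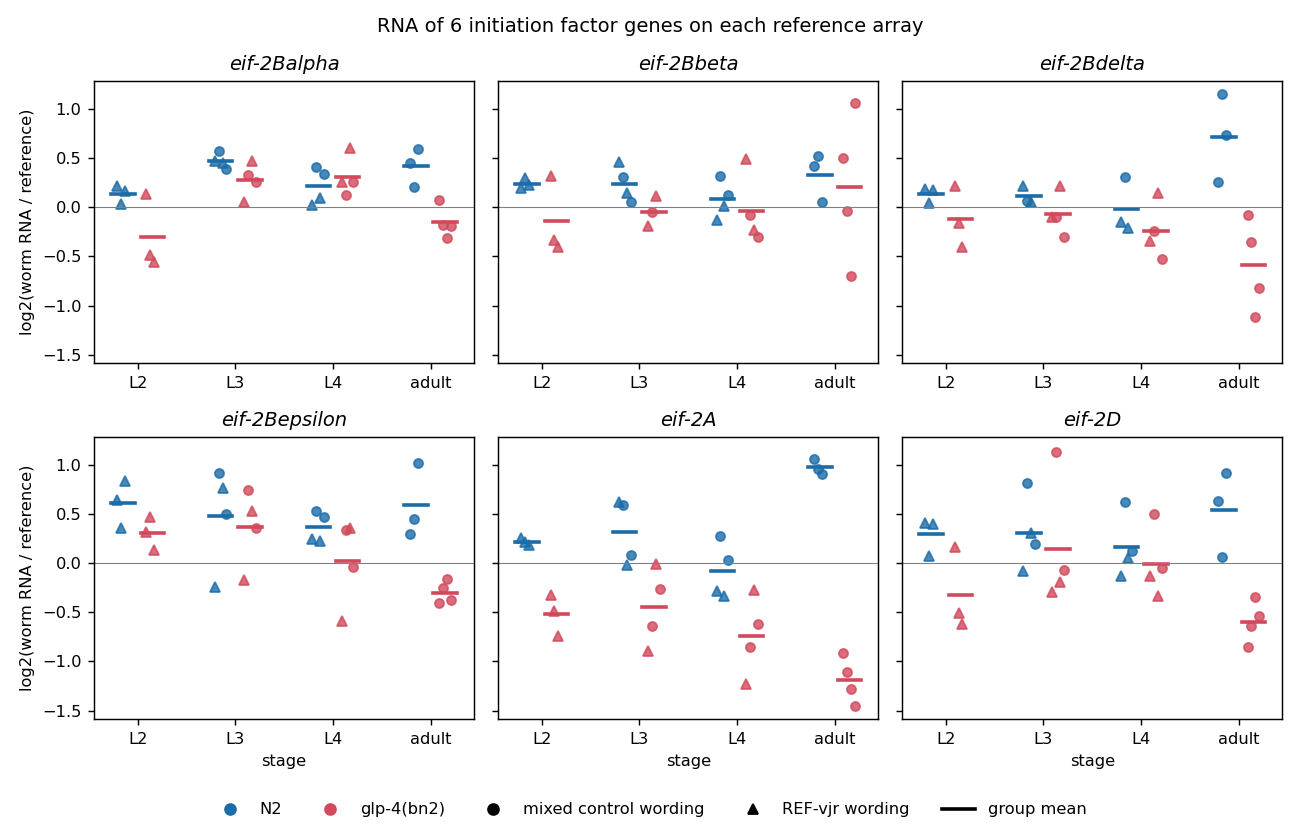
Log2 ratio of worm over reference RNA (vertical axis) for each of the 6 eif genes, by stage (horizontal axis) and strain. Each point is 1 array and each bar is a group mean. In adults the wild-type arrays lie above the glp-4(bn2) arrays for every gene except eif-2Bbeta, and eif-2A spans the widest range, from a group mean of -1.19 in glp-4 adults to 0.97 in wild-type adults.

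The adult comparison asked how RNA levels differ between worms with and without a germ line. RNA of 5 of the 6 eif genes was higher in wild-type adults than in glp-4 adults: eif-2A, eif-2Bdelta, eif-2D, eif-2Bepsilon and eif-2Balpha. The arrays of the strains did not overlap for any of those 5, and the share of all probes without such overlap was not counted. eif-2A differed by 2.16 ± 0.23, a fold of 4.48, and the other 4 by 0.57 to 1.31. eif-2Bbeta was not called. For comparison, 20.3% of the 11402 probes tested were higher in wild type and 39.9% were called in either direction, so that a call by itself is common at this stage. The median difference over the 6 genes was 1.01, beside -0.17 over all probes tested, of which 41.7% were positive.

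Among the regulatory subunits of eIF2B, eif-2Bdelta had the widest gap. Its wild-type adult arrays read 0.26, 1.15 and 0.73 (replicates 2, 3 and 4) and its glp-4 adult arrays -0.079, -0.36, -1.11 and -0.82. Every wild-type array was above every glp-4 array, although each group spread over about 1 log2 unit. The group means were 0.71 ± 0.45 (SD, n = 3) and -0.59 ± 0.46 (SD, n = 4), a difference of 1.31 ± 0.24 (adjusted p = 1.53e-04), or 2.47-fold.

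eif-2Balpha showed a smaller but separated difference. Its wild-type adults read 0.455, 0.21 and 0.595, and its glp-4 adults 0.073, -0.18, -0.32 and -0.19. The difference was 0.57 ± 0.16 (adjusted p = 0.00702), or 1.49-fold. When only the 7 adult arrays entered the fit, the adjusted p was 0.0805.

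eif-2Bbeta stood apart from the other subunits. Its wild-type adults read 0.42, 0.52 and 0.058, while its glp-4 adults read 0.498, -0.04, -0.695 and 1.06, the widest spread of any eif gene in any group (SD 0.75). Wild type lay inside the range of glp-4, and the difference was 0.13 ± 0.28 (adjusted p = 0.751).

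eif-2Bepsilon, the catalytic subunit, read 0.30, 0.45 and 1.02 in wild-type adults and -0.41, -0.25, -0.16 and -0.38 in glp-4 adults. All wild-type values were above the reference pool and all glp-4 values below it. The difference was 0.89 ± 0.26 (adjusted p = 0.00826), or 1.85-fold. Wild-type replicate 4 was the highest array, and without it the difference was 0.67 (adjusted p = 0.073).

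eif-2A had the widest gap of the 6 genes, and its wild-type adults varied least. Its wild-type adults read 1.06, 0.955 and 0.90 and its glp-4 adults -0.91, -1.11, -1.28 and -1.46. The group means were 0.97 ± 0.082 (SD, n = 3) and -1.19 ± 0.23 (SD, n = 4), and nearly 2 log2 units separate the closest arrays of the strains. The adjusted p was 1.08e-07, and 95.5% of the probes tested had a lower difference.

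eif-2D read 0.63, 0.058 and 0.92 in wild-type adults and -0.86, -0.64, -0.34 and -0.54 in glp-4 adults. The groups did not overlap, and the difference was 1.13 ± 0.30 (adjusted p = 0.00434), or 2.19-fold. Germ line markers moved the same way at this stage, with 3 of 3 genes higher in wild type and a median difference of 2.87. Sperm markers were higher for 3 of 8 genes (median 0.71) and oocyte markers for 2 of 5, with an oocyte list median of 0.0089. Of the marker genes for other tissues, 1 of 1 intestine gene and 4 of 13 neuron genes were lower in wild type, beside 19.6% of all probes, and their part in the eif differences was not tested.

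**Figure D2:**
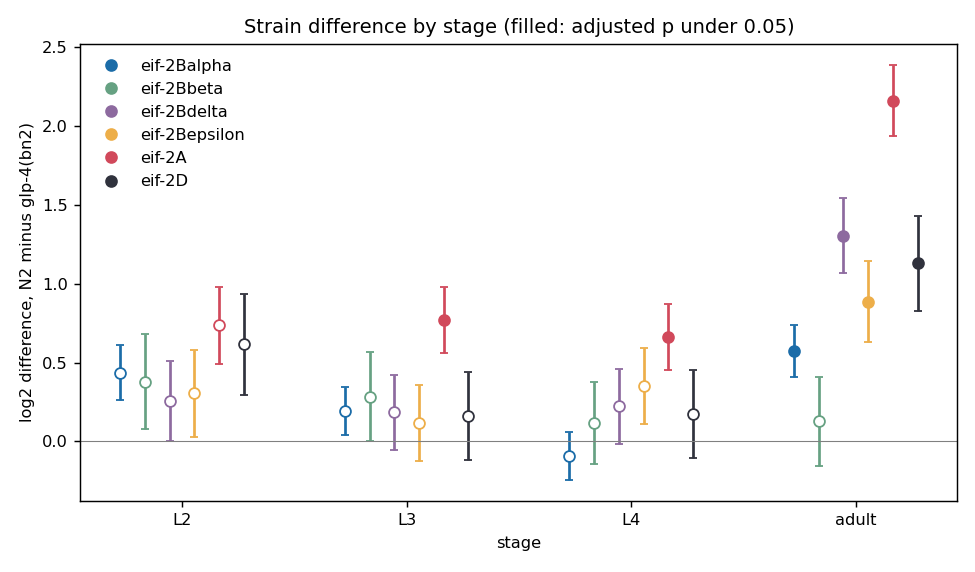
Difference in log2 ratio between wild type and glp-4(bn2) (vertical axis) at each of the 4 stages (horizontal axis) for the 6 eif genes. Points are limma estimates and bars are standard errors. eif-2A lies between 0.66 at L4 and 2.16 in adults and was called at every stage but L2, while the other genes were called in adults or not at all. Every gene lies above 0 at every stage, except eif-2Balpha at L4 (-0.093).

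In L4 larvae eif-2A was the only eif gene called, higher in wild type by 0.66 ± 0.21 (adjusted p = 0.0273), or 1.58-fold. In either direction 19.9% of probes were called at L4, and 11.8% were higher in wild type. Its wild-type arrays read -0.29, 0.27, -0.34 and 0.031 (replicates 1 to 4) and its glp-4 arrays -1.23, -0.855, -0.275 and -0.62. The strains overlapped, because glp-4 replicate 3 lay above wild-type replicates 1 and 3. The other 5 genes differed by -0.093 to 0.35, none with an adjusted p below 0.358, and the median over all 6 was 0.20 beside -0.056 over all probes. Germ line markers were higher in wild type for 3 of 3 genes (median 1.79), sperm markers for 4 of 8 (median 0.72) and oocyte markers for 2 of 5 (median -0.046). The intestine gene and 1 of 13 neuron genes were lower, beside 8.07% of all probes. The part of these markers in the eif-2A difference was not tested.

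The wild-type L4 arrays also split by the wording of the reference pool, which at L3 and L4 is the same split as that by batch number. In wild-type L4 the mixed control arrays (replicates 2 and 4) lay above the REF-vjr arrays (replicates 1 and 3) for all 6 eif genes, and replicate 2 was the highest array for each of the 6 (eif-2Bdelta had no value on replicate 4). How many of all probes split in this way was not counted. In glp-4 L4 the order was the other way for eif-2Balpha (mean 0.19 on mixed control and 0.43 on REF-vjr arrays), eif-2Bbeta (-0.19 and 0.13) and eif-2Bdelta (-0.38 and -0.10). Within the mixed control arrays eif-2A differed between strains by 0.89 (adjusted p = 0.0773), and within the REF-vjr arrays by 0.44 (adjusted p = 0.571). The direction was the same under both wordings, with 2 arrays a strain in each, and neither passed the threshold. eif-2Balpha had opposite signs, 0.18 on mixed control and -0.37 on REF-vjr arrays, as did eif-2Bbeta, with 0.42 and -0.19. The call for eif-2A was also lost without wild-type replicate 2 (difference 0.55, adjusted p = 0.112), wild-type replicate 4 (0.63, 0.0584), glp-4 replicate 1 (0.50, 0.11) or glp-4 replicate 2 (0.63, 0.0712).

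At L3 eif-2A was again the one eif gene called, with a difference of 0.77 ± 0.21 (adjusted p = 0.043), or 1.71-fold. Calls were rarer at L3, with 3.23% of probes in either direction and 2.15% higher in wild type. Its wild-type arrays read 0.62, 0.59, -0.016 and 0.084 and its glp-4 arrays -0.90, -0.64, -0.005 and -0.26. Only glp-4 replicate 3 reached into the wild-type range. The difference was nearly the same within the mixed control arrays, 0.79 (adjusted p = 0.469), and within the REF-vjr arrays, 0.76 (adjusted p = 0.47), without passing the threshold in either. With the batch number as a replicate block the adjusted p was 0.0643, and the call was lost without wild-type replicates 1 or 2 or glp-4 replicates 1, 2 or 4 (differences 0.62 to 0.83, adjusted p 0.0559 to 0.16). The other 5 genes differed by 0.12 to 0.28, with adjusted p from 0.572 to 0.876. Of the germ line markers 2 of 3 were higher in wild type at L3, with a list median of 1.05, and their part was not tested.

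eif-2D and eif-2Bepsilon differed in mean between the wordings at L3 and L4, where batches 2 and 4 have the mixed control and batches 1 and 3 have REF-vjr. The eif-2D mean was higher on mixed control than on REF-vjr arrays in all 4 groups, with 0.50 against 0.11 in wild-type L3, 0.37 against -0.04 in wild-type L4, 0.53 against -0.24 in glp-4 L3 and 0.22 against -0.23 in glp-4 L4. Replicate 2 was the highest eif-2D array in each of these groups, at 0.81, 0.62, 1.13 and 0.50 in the same order. The glp-4 L3 mean rests on it, since the other mixed control array there, replicate 4, read -0.067. The means of eif-2Bepsilon had the same order, with 0.70 against 0.26, 0.4995 against 0.24, 0.55 against 0.18 and 0.15 against -0.12. Its single arrays did not separate by wording, since REF-vjr replicate 3 lay above mixed control replicate 4 in wild-type L3 (0.76 and 0.495), glp-4 L3 (0.53 and 0.36) and glp-4 L4 (0.35 and -0.042). The means of eif-2A in glp-4 worms were nearly equal under both wordings, at -0.45 and -0.45 in L3 and -0.74 and -0.75 in L4. Wording and batch number cannot be told apart at these stages.

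At L2, when wild-type germ cells are few, none of the 6 eif genes was called with limma, and 2 had an unadjusted p below 0.05. After adjustment only 0.419% of all probes were called at this stage, and the share with an unadjusted p below 0.05 was not counted. eif-2A read 0.25, 0.21 and 0.19 in wild type and -0.33, -0.49 and -0.75 in glp-4, without overlap, and the difference of 0.74 ± 0.24 had an adjusted p of 0.208. That difference lies between those at L3 and L4, and 94.8% of the probes tested at L2 had a lower one. All 6 genes were on the positive side, with a median of 0.41 beside 0.014 over all probes. eif-2Balpha differed by 0.44 ± 0.17 (adjusted p = 0.331) and eif-2D by 0.62 ± 0.32 (adjusted p = 0.524). Of the germ line markers 0 of 3 were called at L2, with a list median of 0.60, and their part was not tested.

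The glp-4 L2 array whose source name says L3, replicate 1, was the highest of its group for 5 of the 6 genes, a share not counted over all probes. For eif-2Balpha it read 0.13, where the other glp-4 L2 arrays read -0.48 and -0.56 and wild type read 0.21, 0.028 and 0.165. Without it the eif-2Balpha difference was 0.66 (adjusted p = 0.035). Replicate 2 of that group was a pool of a pair of worm batches.

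Within wild type no eif gene passed the test between larval stages. From L2 to L3 no eif gene was called with limma, 0 had an unadjusted p below 0.05, and 0.181% of probes were called. From L3 to L4 again none was called, 0 had an unadjusted p below 0.05, and 7.25% of probes were called. All 6 estimates were below 0 for that step, from -0.40 ± 0.21 for eif-2A (adjusted p = 0.305) to -0.11 ± 0.24 for eif-2Bepsilon (adjusted p = 0.854). Their median was -0.15, beside -0.0605 over all probes tested, of which 43.4% were positive.

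Between L4 and the young adult, eif-2A and eif-2Bdelta rose in wild type. eif-2A went from a mean of -0.081 ± 0.29 (SD, n = 4) to 0.97 ± 0.082 (SD, n = 3), a rise of 1.05 ± 0.23 (adjusted p = 0.00242), or 2.08-fold. Its adult arrays, 0.90 to 1.06, were all above its highest L4 array, 0.27. eif-2Bdelta rose by 0.73 ± 0.25 (adjusted p = 0.0429), from L4 arrays of -0.15, 0.31 and -0.21 to the adult values given above, and the stages overlapped, since adult replicate 2 at 0.26 was below L4 replicate 2. Over all probes 22% changed at this step, 10.2% rose and 11.8% fell. Germ line markers rose for 3 of 3 genes (median 1.19), and 2 of 8 sperm markers fell. The uterus gene tested, ule-3, rose by 1.98 ± 0.46 (adjusted p = 0.0041). Genes listed as oocyte markers rose for 2 of 5 and fell for 2 of 5. Those that fell, cpg-22 and cpg-19, also fell in glp-4 worms, at -1.52 (adjusted p = 0.00686) and -1.77 (adjusted p = 0.00591). The part of these markers in the rise of the eif genes was not tested. L4 and adult arrays differ in the wording of the reference; with the wording as a term in the fit the rise of eif-2A was 0.99 (adjusted p = 0.00679) and that of eif-2Bdelta 0.78 (adjusted p = 0.0589). The call for eif-2Bdelta was also lost without adult replicate 3 (0.51, adjusted p = 0.175) or 4 (0.72, 0.105) and without L4 replicate 1 (0.67, 0.12), 3 (0.63, 0.147) or 4 (0.73, 0.053). The other 4 genes had estimates of 0.20 to 0.37 and adjusted p from 0.408 to 0.591.

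In glp-4 worms eif-2Balpha rose from L2 to L3 by 0.58 ± 0.16 (adjusted p = 0.0241), or 1.50-fold, and no other eif gene was called at that step, where 10.3% of probes changed, 6.71% rose and 3.57% fell. The intestine gene cpr-9 rose by 1.76 ± 0.37 (adjusted p = 0.00331) and 1 of 3 germ line markers fell at the same step, and their part was not tested. The eif-2Balpha L3 arrays read 0.052, 0.33, 0.47 and 0.26, and the L2 array with the L3 source name, replicate 1 at 0.13, lay within that range. Without that L2 replicate 1 the call was kept, with a rise of 0.80, the largest under any alternative. With the batch number as a replicate block, in a fit without the pooled L2 replicate 2, the rise was 0.48 (adjusted p = 0.185). Leaving out the pooled L2 replicate 2 with no block gave 0.49 (adjusted p = 0.136). Leaving out L2 replicate 2 or 3 or L3 replicate 2 or 3 also ended the call, with rises of 0.45 to 0.56 and adjusted p from 0.0587 to 0.173.

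From L3 to L4 in glp-4 worms no eif gene was called with limma, 0 had an unadjusted p below 0.05, and 0.367% of probes were called. From L4 to adult none was called either, beside 8.04% of all probes called after adjustment. Without adjustment 3 genes had a limma p below 0.05, and the share of all probes at that level was not counted. Those 3 were eif-2Balpha at -0.46 ± 0.15 (adjusted p = 0.059), eif-2D at -0.59 ± 0.28 (adjusted p = 0.214) and eif-2A at -0.45 ± 0.21 (adjusted p = 0.21). The L4 and adult arrays did not overlap for eif-2Balpha, with L4 arrays from 0.13 to 0.598, or for eif-2D, with L4 arrays from -0.33 to 0.50. The share of all probes without overlap at this step was not counted. With the reference wording as a term, eif-2D fell by 0.84 (adjusted p = 0.0429), and without adult replicate 1, the array with the other time code, eif-2Balpha fell by 0.54 (adjusted p = 0.0469).

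The strain difference itself was compared between neighbouring stages with interaction terms. For eif-2A it grew from L4 to adult by 1.50 ± 0.31 (adjusted p = 0.00685), made up of the rise of 1.05 in wild type and the uncalled -0.45 in glp-4 worms. At that step 6.58% of probes had a changed strain difference and 4.88% had a larger one. eif-2Bdelta, at 1.08 ± 0.34 (adjusted p = 0.0562), eif-2Balpha, at 0.67 ± 0.22 (adjusted p = 0.0723), and eif-2D, at 0.96 ± 0.41 (adjusted p = 0.173), were on the same side without passing the threshold. For eif-2Bdelta and eif-2Balpha the call turned on single arrays. Without wild-type L4 replicate 2 the values were 1.25 (adjusted p = 0.0286) for eif-2Bdelta and 0.73 (0.0451) for eif-2Balpha, and without glp-4 adult replicate 1 they were 1.25 (0.0224) and 0.74 (0.0465). Without wild-type adult replicate 2 only eif-2Bdelta joined eif-2A (1.31, 0.0379), and without wild-type adult replicate 3 only eif-2Balpha (0.77, 0.0387). From L2 to L3 and from L3 to L4 no eif gene had a changed strain difference with limma, and 0 had an unadjusted p below 0.05 at either step; 0% and 2.63% of all probes were called.

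Ordered by group mean, every wild-type group stood above every glp-4 group for eif-2A: wild-type adult 0.97, L3 0.32, L2 0.22 and L4 -0.081 came before glp-4 L3 -0.45, L2 -0.52, L4 -0.74 and adult -1.19. Of the 7 neighbouring pairs in that order, 6 had overlapping arrays, the exception being wild-type adult over wild-type L3. eif-2Bdelta also had 6 overlapping pairs, with wild-type adult standing clear of wild-type L2. For the other 4 genes all 7 neighbouring pairs overlapped. Wild-type means also all stood above the glp-4 means for eif-2Bdelta, eif-2Bepsilon and eif-2D. The shares of all probes with such an order, or with as many overlapping pairs, were not counted. The gap between the strains in that order was 0.37 for eif-2A, 0.055 for eif-2Bdelta, 0.0028 for eif-2Bepsilon and 0.0225 for eif-2D. The highest and lowest group means were 2.16 apart for eif-2A, 1.31 for eif-2Bdelta, 1.13 for eif-2D, 0.91 for eif-2Bepsilon, 0.77 for eif-2Balpha and 0.47 for eif-2Bbeta.

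The direct comparison of fem-3(q23) with fem-1(hc17) asked how RNA differs between worms making sperm and worms making oocytes. RNA of 4 eif genes was lower in the sperm-making worms: eif-2A, eif-2Bdelta, eif-2Bepsilon and eif-2D. Each was below 0 on 5 of 5 arrays, and the share of all probes below 0 on every array was not counted. eif-2Balpha and eif-2Bbeta, the other measured regulatory subunits of eIF2B, were not called. Over all 13284 probes tested 15.5% were lower in fem-3 and 34.7% were called in either direction. The median over the 6 genes was -0.58 beside 0.16 over all probes. Because fem-3 RNA was in the red channel on every array, a dye effect and a strain effect cannot be told apart here.

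**Figure D3:**
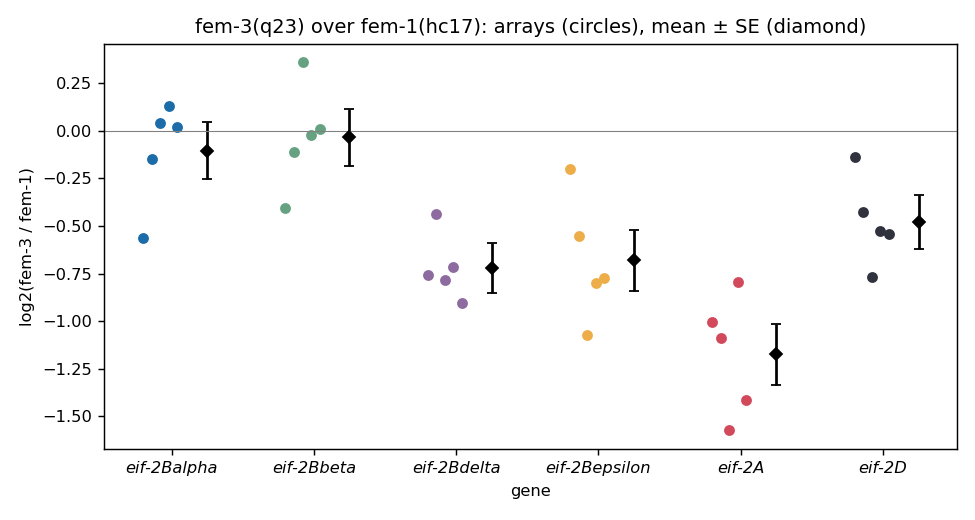
Log2 ratio of fem-3(q23) over fem-1(hc17) RNA (vertical axis) on each of the 5 arrays for the 6 eif genes (horizontal axis). Each circle is 1 array, each diamond is the mean and each bar is its standard error. eif-2A is lowest, from -1.57 to -0.79, while the arrays of eif-2Balpha and eif-2Bbeta lie on both sides of 0.

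eif-2Bdelta read -0.755, -0.44, -0.785, -0.72 and -0.905 on replicates 1 to 5, a mean of -0.72 ± 0.13 (adjusted p = 0.00602), or 1.65-fold lower in fem-3. eif-2Bepsilon read -0.20, -0.55, -1.07, -0.80 and -0.775, a mean of -0.68 ± 0.16 (adjusted p = 0.0174), or 1.60-fold lower. The delta subunit varied less between arrays than the epsilon subunit, and the epsilon call was lost without replicate 4 (-0.65, adjusted p = 0.0675) or replicate 5 (-0.66, adjusted p = 0.0675).

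eif-2A read -1.003, -1.09, -1.57, -0.79 and -1.415, a mean of -1.17 ± 0.16 (adjusted p = 0.00169), or 2.26-fold lower in fem-3. No array came within 0.79 of 0, and 4.93% of the probes tested had a lower value. eif-2D read -0.14, -0.43, -0.77, -0.52 and -0.54, a mean of -0.48 ± 0.14 (adjusted p = 0.0372), or 1.39-fold lower. Its call was lost without any 1 of replicates 2 to 5 (-0.49 to -0.41, adjusted p 0.0726 to 0.119), and under quantile normalization (-0.45, adjusted p = 0.0602).

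eif-2Balpha read -0.56, -0.15, 0.039, 0.13 and 0.021, a mean of -0.10 ± 0.15 (adjusted p = 0.61). eif-2Bbeta read -0.41, -0.11, 0.36, -0.023 and 0.009, a mean of -0.035 ± 0.15 (adjusted p = 0.873). For both genes the lowest array was replicate 1, which was scanned with other software than the rest and reconstructed. The title of replicate 3 marks it as a repeat of replicate 2, and with those arrays averaged the eif-2D value was -0.45 (adjusted p = 0.0577). Germ line markers were lower in fem-3 as well, 3 of 3 genes with a median of -1.02, while 9 of 10 sperm genes were higher with a median of 2.33. Lower calls were made for 2 of 5 oocyte genes, with a list median of -0.11. The intestine gene with a probe, cpr-9, was higher in fem-3 by 0.59 ± 0.14 (adjusted p = 0.0187), as were 6 of 16 neuron genes, with a list median of 0.39; 19.2% of all probes were higher. Their part in the eif values was not tested.

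Set side by side, the adult strain difference and fem-3 over fem-1 were 2.16 and -1.17 for eif-2A, 1.31 and -0.72 for eif-2Bdelta, 0.89 and -0.68 for eif-2Bepsilon, and 1.13 and -0.48 for eif-2D. eif-2Balpha was higher in wild-type adults by 0.57, with -0.10 between the fem strains, which was not called. eif-2Bbeta was called in neither, with 0.13 and -0.035.

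How far the genes moved together was described by Pearson's r over the reference arrays, with no test, since arrays of a group share stage and strain. The highest value was 0.83 between eif-2Bdelta and eif-2A over 27 arrays, and it was 0.49 after each group's mean was removed. eif-2D and eif-2Bepsilon followed with 0.73 over 29 arrays and 0.59 within groups. Among the 4 eIF2B subunits r ran from -0.11, between eif-2Bbeta and eif-2Bepsilon, to 0.57, between eif-2Balpha and eif-2Bdelta. eif-2Bbeta had r of at most 0.33 with any other eif gene, apart from the rest, which had 0.43 to 0.83 with each other.

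**Figure D4:**
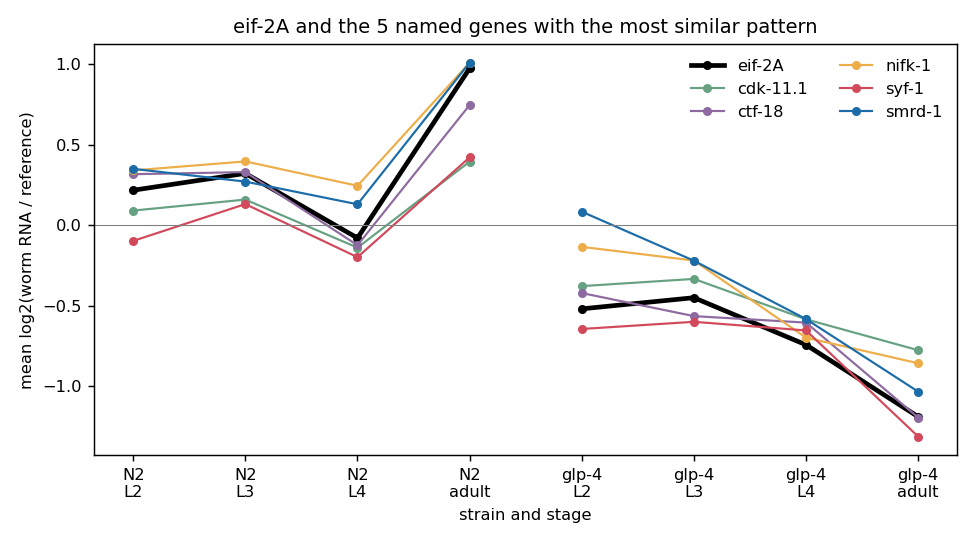
Group means of the log2 ratio of worm over reference RNA (vertical axis) in the 8 strain and stage groups (horizontal axis) for eif-2A and the 5 genes with the most similar values over arrays. All 6 genes have their highest mean in wild-type adults and their lowest in glp-4 adults, with eif-2A at 0.97 and -1.19. The 5 genes were chosen over these same arrays, so a shared order was favoured by the choice.

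The genes with the most similar values to eif-2A, among 761 candidates with a gene-class symbol, were cdk-11.1, which encodes a cyclin-dependent kinase (r = 0.96 over 29 arrays), and ctf-18, which encodes a subunit of a clamp loader for DNA replication and cohesion (r = 0.955 over 28 arrays). They were followed by nifk-1 (0.94), syf-1, which encodes a splicing factor (0.935), and smrd-1 (0.93); the median candidate had r = 0.026. Their adult strain differences were 1.17 ± 0.17 for cdk-11.1, 1.94 ± 0.21 for ctf-18, 1.87 ± 0.23 for nifk-1, 1.73 ± 0.19 for syf-1 and 2.04 ± 0.23 for smrd-1. These genes were chosen for similarity to eif-2A over the same arrays, so such differences were favoured by the choice. In fem-3 over fem-1 they read -0.44 for cdk-11.1 (adjusted p = 0.064), -1.12 for ctf-18 (0.00112), -1.08 for nifk-1 (0.00154), -1.03 for syf-1 (0.00486) and -0.57 for smrd-1 (0.0143).

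The nearest genes to eif-2Bdelta were luc-7L (r = 0.87), utp-14, a ribosome biogenesis gene (0.84), and sluh-7, a splicing gene (0.835). Those to eif-2Bepsilon were sna-3, snu-66 and lrpr-1, each with r = 0.83. Those to eif-2D were mtrf-1L, which encodes a mitochondrial release factor (0.85), utp-11, another ribosome biogenesis gene (0.84), and rpap-3 (0.83). The best matches were lower for eif-2Balpha, with mpdu-1 (0.82), mrps-27 (0.77) and rpn-13, a proteasome subunit gene (0.75), and lowest for eif-2Bbeta, with gmpr-1 (0.70), serp-1.1 (0.65) and metl-13 (0.55).

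Few other genes of translation could be set beside the eif genes by name. Lists of other initiation factors, of elongation and termination factors and of aminoacyl-tRNA synthetases had 0 genes with a matched symbol, and the ribosomal protein list had 2, both of the mitochondrial ribosome. mrps-27 was higher in wild-type adults by 0.65 ± 0.23 (adjusted p = 0.0245) and lower in fem-3 by 0.65 ± 0.15 on the log2 scale (adjusted p = 0.0159). mrpl-44 had 0.37 ± 0.18 in adults (adjusted p = 0.101) and was lower in fem-3, at -0.615 ± 0.12 (adjusted p = 0.00888). In glp-4 worms 1 of these 2 rose from L2 to L3 and 1 fell from L4 to adult.

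A list of 6 further translation genes was drawn up after the names on the arrays were seen. Of the 5 tested in adults, 3 were higher in wild type: mtrf-1L by 1.70 ± 0.26 (adjusted p = 1.83e-05), dph-5, which encodes an enzyme of diphthamide synthesis on elongation factor 2, by 1.29 ± 0.23 (adjusted p = 9.36e-05), and znf-598, whose mammalian counterpart is a ubiquitin ligase that senses collided ribosomes, by 0.99 ± 0.24 (adjusted p = 0.00233). The list's median was 1.19 beside -0.17 over all probes. In fem-3 over fem-1, 2 of the 6 were lower, mtrf-1L at -0.76 (adjusted p = 0.0159) and znf-598 at -0.64, and the median was -0.14 beside 0.16 over all probes. At L4, 2 of the 5 tested were higher in wild type. From L4 to adult, 1 of the 5 rose in wild type, 1 of the 5 fell in glp-4 worms, and 2 of the 5 had a larger strain difference in adults.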

How the data were processed

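The authors deposited log ratios of the red to the green channel, read here as log2. The sources used here name neither the base nor the normalization or spot filters. On 29 arrays the reference pool was labelled red, per the labels, so those signs were turned, and fem-3 was red on the other 5. GenePix is named for all arrays but 1. Values were used without further scaling.

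All probes were fitted with limma 3.58.1 (R 4.3.3), the 29 reference arrays as 8 group means with a shared spread (prior degrees of freedom 2.4) and the 5 fem arrays alone against 0 (2.95). Probes needed 2 values in each group, or 3 fem values. Tests were two-sided, with Benjamini-Hochberg adjustment over all probes of a comparison, and were tested on simulated data. The p-values cover only the spread between these worm batches and arrays, which may be partly technical, and the number of arrays limits the precision. Spot signals were not used here.

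All eif genes are named in every comparison. Neighbours are the 3 genes (5 for eif-2A) with a gene-class symbol, at least 24 shared arrays and the highest Pearson r. From each translation list up to 3 genes called in the adult strain comparison or in fem-3 over fem-1 are named in each, and other calls are counted. Members, lists and tests were chosen with earlier results of these data known. Of 5582 probes with a gene name, 5559 matched the gene table by ID. Alternatives were array centring, quantile normalization, stricter filtering, a replicate block, a reference-wording term, the compared arrays alone, each wording alone, and leaving out each array. The replicate block was fitted without glp-4 L2 replicate 2, the pool of a pair of worm batches. The array lots in the labels differ for every array. Batch numbers were checked by correlating arrays over all probes after each group's mean was removed. Same-numbered arrays of the strains then correlated at -0.047 to 0.217 and those of neighbouring stages at -0.193 to 0.347. These were not above 0.1 in every pair, so numbers were not treated as pairs. Differently numbered arrays had -0.275 to 0.221 and -0.255 to 0.219. Between the strains at L4, same numbers had 0.0605 to 0.217 and different numbers -0.195 to 0.136. Between wild-type L3 and L4, same numbers had 0.012 to 0.347 and different numbers -0.237 to 0.104. Between glp-4 L2 and L3 these were -0.193 to -0.0254 and -0.133 to 0.187. Whether batches were shared was not tested.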

Additional observations from a re-analysis of the deposited data

Results flagged for a closer look

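eif-2D on glp-4 L3 replicate 2 read 1.128, far from the other arrays of its group, which lay between -0.29 and -0.067. The gap to the nearest of them was 0.842 of the group's range, above Dixon's limit for 4 values. Chance flags about 5% of such groups, and 33 combinations of gene and group were looked at. The array carries the mixed control wording, as does replicate 4 of the group at -0.067.

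The strain difference of eif-2A was larger in adults than at L4 by 1.50 on the log2 scale, by a test of the difference itself. It is the one eif gene whose strain difference passed that test between any neighbouring stages.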

How the results depend on the processing

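The calls for eif-2A in adults (difference 1.98 to 2.26), from L4 to adult in wild type (0.97 to 1.17), for the change of its strain difference from L4 to adult (1.34 to 1.66) and in fem-3 over fem-1 (-1.31 to -1.08) were kept under every alternative run, as were those for eif-2Bdelta and eif-2D in adults and eif-2Bdelta between the fem strains. No called value changed sign; 80 uncalled estimates did, none above 0.32 in size under its alternative. The number of eif genes called fell from 1 to 0 at L4 and at L3 when only the compared arrays or the arrays of either wording were fitted, and at L3 and for glp-4 L2 to L3 with a replicate block (0 each); the latter was also 0 with only the compared arrays. It rose from 0 to 1 at L2 under quantile normalization (eif-2A 0.86, adjusted p = 0.0431) and for glp-4 L4 to adult with a wording term, and fell from 2 to 1 for wild-type L4 to adult under quantile normalization, a wording term or the compared arrays alone. Leaving out 1 array at a time gave 0 to 1 at L4, L3, L2, glp-4 L2 to L3 and glp-4 L4 to adult, 1 to 2 for wild-type L4 to adult, 1 to 3 for the changed strain difference from L4 to adult, and 2 to 4 between the fem strains. The replicate block changed no other count of eif calls, such as the 5 in adults. Over all probes, fitting only the compared arrays reduced the L3 calls from 359 to 29. Array centring moved the median of all probes in fem-3 over fem-1 from 0.16 to 0.024, and eif-2A to -1.31. The cause of these shifts was not tested; fits of fewer arrays have fewer degrees of freedom by construction.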
